A study of Mus musculus with 6 samples.

Results

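The genes described here encode substrate adaptors and ubiquitin ligases that are prominent in heart and skeletal muscle. They are 6 members of the ASB family (Asb2, Asb10, Asb11, Asb14, Asb15 and Asb18), the kelch protein gene Klhl30, the F-box gene Fbxo32, and the RING ligase genes Trim63 and Trim54. The genes were chosen by name and function with earlier knockout against wild type values of these same arrays in view, among them the low value of Asb15. Their differences between the genotypes are therefore a description of these arrays, and the adjusted p-values beside them are not independent support. All probe sets that the platform annotation gives to 1 of these symbols alone were used, which gave 15 probe sets for 10 genes, of 38195 probe sets and 18029 genes in all.

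The hearts came from 3 Tmbim1 KO mice and 3 mice labelled Flox and wild type, on a C57BL/6 background, 8 weeks old when treated, all 2 weeks after a surgery that the labels spell aortic binding, read here as aortic banding. Banding narrows the aorta and makes the left ventricle pump against a higher pressure. Each sample is 1 array and reports log2 signal per probe set. The series' design text counts 3 biological samples for each genotype. The labels state neither the cells that lack Tmbim1 nor a shared litter, and unbanded hearts were not analysed here.

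Ubiquitin ligases attach ubiquitin to chosen proteins, which are then broken down by the proteasome or rerouted. ASB proteins carry ankyrin repeats that bind a substrate and a SOCS box that docks on elongins B and C and on cullin 5. Kelch proteins of the KLHL family usually serve cullin 3, and F-box proteins serve cullin 1 through Skp1. The TRIM proteins Trim63 (MuRF1) and Trim54 (MuRF3) are RING ligases of the sarcomere that act without a cullin. Fbxo32 (atrogin-1) and Trim63 are the classic genes of muscle wasting, where transcription factors of the FoxO family induce them.

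Of these 10 genes, 4 had a probe set that fell in knockout hearts, beside 0.344% of all 18029 genes, and 0 had one that rose. They were Asb15, Klhl30, Asb14 and Fbxo32, with differences of -1.08, -0.73, -0.69 and -0.88 on the log2 scale. The MuRF genes Trim63 and Trim54 were at -0.20 and -0.017 and did not pass, nor did Asb2, Asb10, Asb11 and Asb18. The threshold was an adjusted p of 0.05 by limma over all 38195 probe sets, and each of these falls lost its call without certain single arrays, as given with each gene.

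The promoter sequences of 2 of the genes that fell, Asb14 and Asb15, and of the 2 MuRF genes, Trim63 and Trim54, are shown because the first pair passed the threshold and the second pair did not. Each is the RefSeq window of GRCm38.p6 from 250 bases before to 50 bases after the annotated start, 5′ to 3′ on the gene's strand. Capitals mark matches on either strand to 7 motifs. The E-box was searched as CANNTG and the core of FoxO sites as GTAAACA. The MCAT element was searched as CATTCC, the box bound by the TATA factor as TATAAA and the site of GATA factors as AGATAA. The MEF2 and CArG motifs were searched by their usual forms.
Asb14, chr14:26894364-26894663 (+): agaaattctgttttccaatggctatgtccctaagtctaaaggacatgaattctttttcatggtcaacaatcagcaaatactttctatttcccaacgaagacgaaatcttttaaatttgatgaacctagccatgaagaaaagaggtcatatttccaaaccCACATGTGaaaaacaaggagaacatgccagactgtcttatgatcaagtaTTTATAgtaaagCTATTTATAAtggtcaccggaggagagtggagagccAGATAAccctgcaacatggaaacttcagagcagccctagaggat
Asb15, chr6:24527894-24528193 (+): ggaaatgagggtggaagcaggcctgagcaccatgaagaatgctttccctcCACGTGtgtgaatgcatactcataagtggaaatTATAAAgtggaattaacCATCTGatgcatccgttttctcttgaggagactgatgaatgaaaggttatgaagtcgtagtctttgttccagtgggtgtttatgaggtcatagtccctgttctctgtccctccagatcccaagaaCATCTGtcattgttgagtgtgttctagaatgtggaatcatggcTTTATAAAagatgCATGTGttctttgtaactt
Trim63, chr4:134314870-134315169 (+): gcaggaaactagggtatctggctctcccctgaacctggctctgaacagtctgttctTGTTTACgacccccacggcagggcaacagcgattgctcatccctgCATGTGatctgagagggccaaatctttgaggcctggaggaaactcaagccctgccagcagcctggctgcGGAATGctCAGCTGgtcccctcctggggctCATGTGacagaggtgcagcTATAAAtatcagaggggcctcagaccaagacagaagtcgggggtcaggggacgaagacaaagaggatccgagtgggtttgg
Trim54, chr5:31116362-31116661 (+): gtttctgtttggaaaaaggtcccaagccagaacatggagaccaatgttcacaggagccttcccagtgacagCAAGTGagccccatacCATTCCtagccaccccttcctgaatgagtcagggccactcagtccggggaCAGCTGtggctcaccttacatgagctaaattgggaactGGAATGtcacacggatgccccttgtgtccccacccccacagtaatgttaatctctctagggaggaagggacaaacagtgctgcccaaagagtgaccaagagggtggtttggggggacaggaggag
The windows of both Asb genes hold a TATAAA match on either strand, as does that of Trim63, and that of Trim54 holds none. These matches differ in strand and place. Those of Asb14, at -42 and -27 from the start, read TTTATA on the gene's strand. Those of Asb15 lie at -167, 19 and 21, and that of Trim63 reads TATAAA at -31. The Asb14 window has a MEF2 match at position -30 from the start that overlaps a TATA match, and the Trim63 window has a FoxO core match at position -194.

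Windows were found for 8 of the 10 genes, with 9 windows in all since Asb2 has 2 starts. Klhl30 and Fbxo32, which both fell, had no window, so their promoters were not searched for any motif. An E-box was present in 9 of 9 windows, against 72.3% of all 32851 promoter windows of the same length. MEF2 matches were in 2 windows (Asb14 and Asb18) against 3.19% of all, and FoxO core matches in 2 (Trim63 and Asb18) against 3.65%. TATAAA was in 4 windows (13.6% of all), MCAT in 3 (14.7%), AGATAA in 1 (11.2%) and a CArG motif in 1, that of the upstream start of Asb2 (1.63%). These are matches of letters in short windows and say nothing about binding.

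Before the values, the check of the targeted gene and of the libraries is given. Tmbim1 was at 7.53, 7.49 and 7.56 in knockout hearts, against 8.58, 8.38 and 8.33 in wild type hearts (difference -0.91, adjusted p = 0.00579), by a probe set whose place relative to the deleted part is not known. Knockout replicate 1 stood apart by atrial genes: the summed linear signal of 9 atrial markers was 35154 there, against 12996 and 10775 in the other knockout hearts and 3994 to 6809 in wild type hearts. On the other 5 arrays that sum was mostly Nppa, the brightest of the 9. Nppa read 13.78, 13.63 and 13.36 in knockout hearts, against 12.67, 12.67 and 11.85 in wild type hearts. It rose by 1.19 by limma (adjusted p = 0.0496), a call not examined with arrays left out. The defining atrial genes Myl7, Myl4 and Sln, at 12.86, 12.98 and 12.17 on knockout replicate 1, lay between 2.42 and 4.87 on the other 5 arrays. Wild type replicate 3 was the array farthest from the others in a principal component analysis. For the 10 genes, the difference at the main probe set is also given below without each of these arrays.

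Asb15, a muscle ASB gene linked to muscle growth in rats, had the largest difference of the 10. Where a gene has several probe sets, the brightest on average is called its main one, here 1439836_at. It read 7.45, 7.30 and 7.82 in knockout hearts, against 8.50, 8.50 and 8.80 in wild type hearts. All 3 knockout arrays were below all 3 wild type arrays, with a gap of 0.68 between the groups. Asb15 fell by 1.08 (SE 0.15, adjusted p = 0.0165), or 2.11-fold lower expression, and ranked 7th from the lowest among the 18029 main probe sets. Its other probe set (1460281_at) was dim, at 2.45, 2.87 and 2.54 in knockout hearts and 3.00, 3.05 and 2.80 in wild type hearts. There the groups overlapped and the difference of -0.33 did not pass (adjusted p = 0.377). The call of the main probe set was kept without knockout replicate 3 (adjusted p = 0.0197) and lost without any other single array, the highest being 0.0954 without knockout replicate 2. Its difference was -1.04 without knockout replicate 1 and -0.98 without wild type replicate 3.

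Asb14, an ASB gene of heart and skeletal muscle with few known substrates, showed a smaller fall. It read 7.26, 7.38 and 7.46 in knockout hearts, against 7.86, 8.24 and 8.08 in wild type hearts. The groups were separate by 0.41, more than the 0.20 range of the knockout hearts and the 0.37 range of the wild type hearts. Asb14 fell by 0.69 (SE 0.12, adjusted p = 0.0443), which is 1.62-fold. Of the fits lacking 1 array, the one lacking wild type replicate 1 kept the call (adjusted p = 0.0460). Without knockout replicate 1 the difference was -0.64 (adjusted p = 0.189), and without wild type replicate 3 it was -0.68 (adjusted p = 0.135).

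The other 4 ASB genes had negative differences at their main probe sets that did not pass. Asb2, whose protein marks filamins for breakdown in muscle cells, read 9.62, 9.47 and 9.66 in knockout hearts and 10.11, 9.84 and 9.996 in wild type hearts. The groups of Asb2 did not overlap, and its difference was -0.40 (SE 0.11, 95% interval -0.64 to -0.16, adjusted p = 0.182). Asb10, which human genetics has linked to glaucoma, has 2 probe sets that gave similar differences, -0.33 (adjusted p = 0.306) and -0.41 (adjusted p = 0.184). In both, knockout replicate 1 was lowest and replicate 3 highest among the knockout hearts, and all knockout values lay under the wild type ones. The main one read 7.83, 7.99 and 8.16 in knockout hearts, against 8.23, 8.41 and 8.31 in wild type hearts. Without knockout replicate 1 the main differences were -0.42 for Asb2 and -0.24 for Asb10. Without wild type replicate 3 they were -0.39 for Asb2 and -0.33 for Asb10.

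Asb11, whose relative in zebrafish acts in Notch signalling, read 9.74, 9.74 and 9.75 in knockout hearts. The wild type hearts read 9.65, 9.91 and 10.25 and enclosed the knockout values, so the groups overlapped. Its difference was -0.20 (95% interval -0.51 to 0.12, adjusted p = 0.713), and it was -0.19 without knockout replicate 1 and -0.039 without wild type replicate 3. Asb18, an ASB gene of little known function, had probe sets of opposite sign. The main one (1440603_at) was at -0.23 (adjusted p = 0.525), with knockout values of 4.96, 4.99 and 4.92 just under the wild type ones of 5.40, 5.11 and 5.05. Its difference was -0.23 without knockout replicate 1 and -0.30 without wild type replicate 3. The dim one (1426116_at) was at 0.16 (adjusted p = 0.669), with a mean of 2.66, under the lower quartile of signals on each array.

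**Figure D1:**
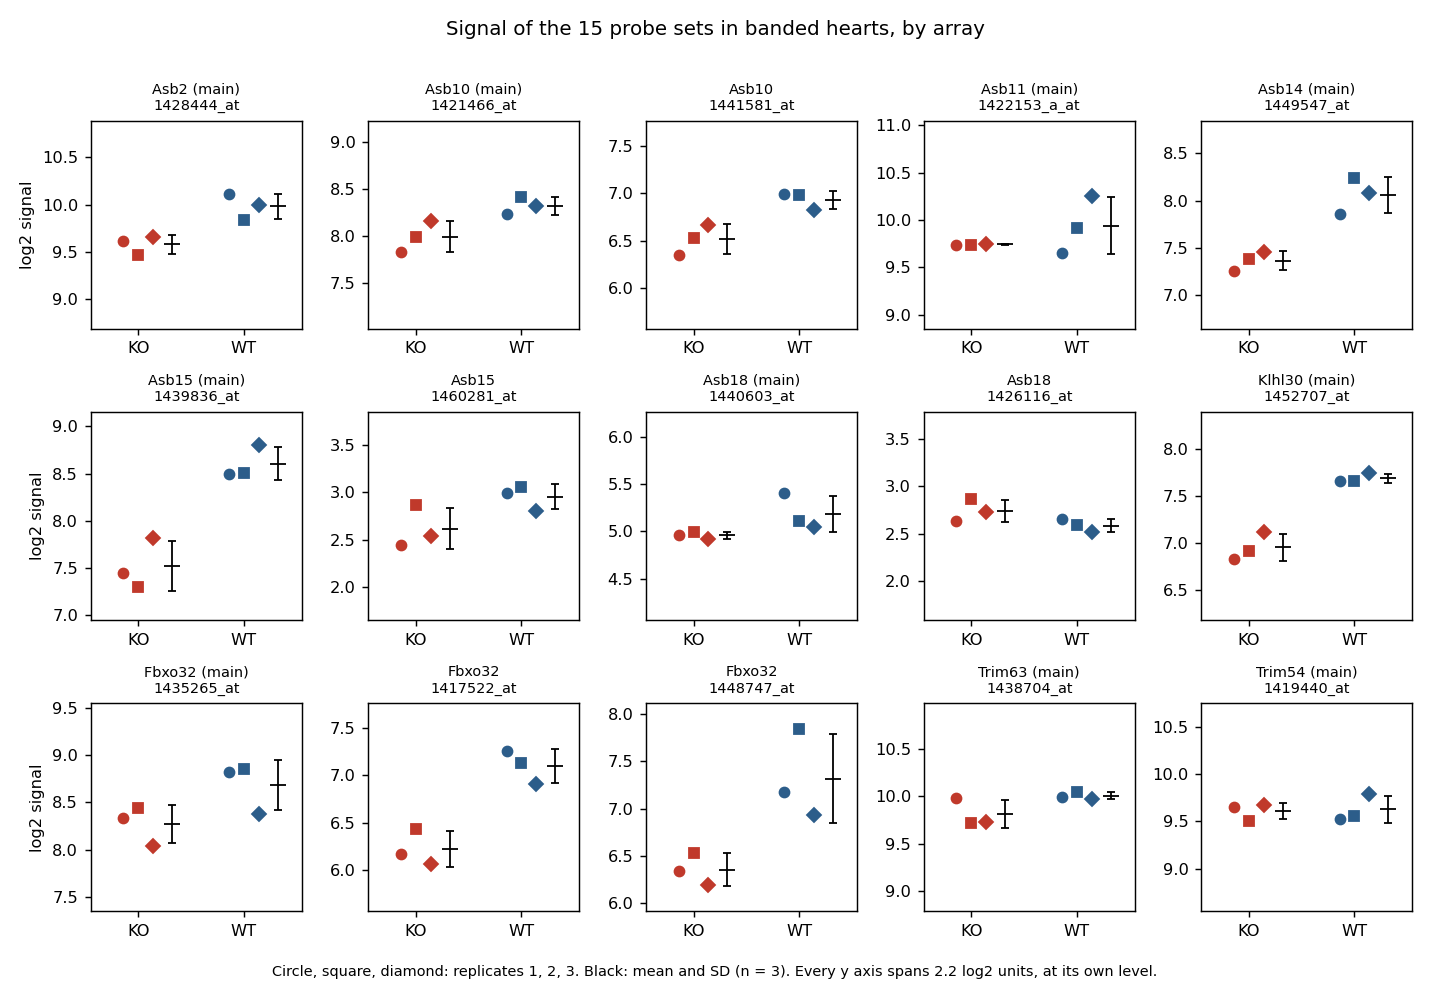
Log2 signal of each of the 15 probe sets in the 3 knockout (KO, red) and 3 wild type (WT, blue) hearts, with the mean and SD of each group in black; each panel spans the same number of log2 units at its own level. The knockout points lie wholly below the wild type points in 9 of the 15 panels, with the widest gap at the main probe set of Asb15 (0.68).

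Klhl30, a kelch adaptor gene, had the tightest wild type group of the genes that fell. It read 6.84, 6.91 and 7.12 in knockout hearts, against 7.66, 7.66 and 7.74 in wild type hearts. The gap between the groups was 0.54, while the wild type hearts spanned 0.083. Klhl30 fell by 0.73 (SE 0.10, adjusted p = 0.0214), or 1.66-fold. It kept its call without knockout replicate 3 (adjusted p = 0.0357) and lost it without any other single array, with an adjusted p of up to 0.126 without knockout replicate 2. The difference was -0.71 in that fit, -0.67 without knockout replicate 1 and -0.71 without wild type replicate 3.

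Klhl30 and Asb18 lie on chromosome 1, the chromosome of Tmbim1. Along that chromosome they are the 142nd and the 129th measured gene from Tmbim1, in the same direction as Wdfy1, which is the 56th and had a difference of 2.65 (adjusted p = 1.30e-05). Among the 142 measured genes after Tmbim1 up to and including Klhl30, 2 rose (Kcne4 and Wdfy1) and 2 fell (Usp40 and Klhl30), with a median of -0.028. Among the other 911 measured genes of chromosome 1, 8 rose and 2 fell, with a median of 0.012. Of all main probe sets, 0.322% rose and 0.227% fell. The stretch was ended at Klhl30, a gene that fell, and contains Wdfy1, so its count includes their calls by construction. Genes on the other side of Tmbim1 are among the 911. Whether DNA around the targeted gene differs between the groups was not tested. The other 8 genes lie on other chromosomes.

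Fbxo32, the muscle F-box gene also called atrogin-1, has 3 probe sets, and they differed in size and call. The brightest (1435265_at) read 8.33, 8.44 and 8.04 in knockout hearts, against 8.82, 8.85 and 8.38 in wild type hearts. These groups overlapped slightly, and the difference of -0.41 did not pass (SE 0.15, adjusted p = 0.340). It was -0.44 without knockout replicate 1 and -0.57 without wild type replicate 3. The probe set 1417522_at read 6.17, 6.43 and 6.06 in knockout hearts, against 7.26, 7.14 and 6.91 in wild type hearts. By this measure Fbxo32 fell by 0.88 (SE 0.13, adjusted p = 0.0273), or 1.84-fold, with a gap of 0.48 between the groups. The probe set 1448747_at, designed from the same GenBank record, read 6.34, 6.54 and 6.19 in knockout hearts, against 7.17, 7.84 and 6.93 in wild type hearts. Its difference of -0.96 was larger but less certain (SE 0.20, adjusted p = 0.0975), and its wild type hearts spanned 0.91. In all 3 probe sets replicate 3 was lowest within each genotype. Of the fits lacking 1 array, only the one lacking wild type replicate 3 kept the call of 1417522_at (adjusted p = 0.0274), and the adjusted p was highest (0.120) when knockout replicate 1 was missing.

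The MuRF genes stood closer to zero. Trim63 read 9.98, 9.72 and 9.72 in knockout hearts, against 9.99, 10.04 and 9.98 in wild type hearts. Knockout replicate 1, the array with the atrial genes, lay at the wild type level and the other 2 knockout arrays below it. The difference of Trim63 was -0.20 (SE 0.10, 95% interval -0.43 to 0.035, adjusted p = 0.567), and it was -0.28 without knockout replicate 1 and -0.21 without wild type replicate 3. Trim54, whose protein binds microtubules and the sarcomere, read 9.65, 9.51 and 9.67 in knockout hearts and 9.53, 9.56 and 9.79 in wild type hearts. Its groups overlapped and its difference was -0.017 (95% interval -0.26 to 0.22, adjusted p = 0.981), with -0.036 without knockout replicate 1 and a turned sign without wild type replicate 3 (0.066). That Fbxo32 passed and Trim63 did not is no test of a difference between them, which was not made.

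**Figure D2:**
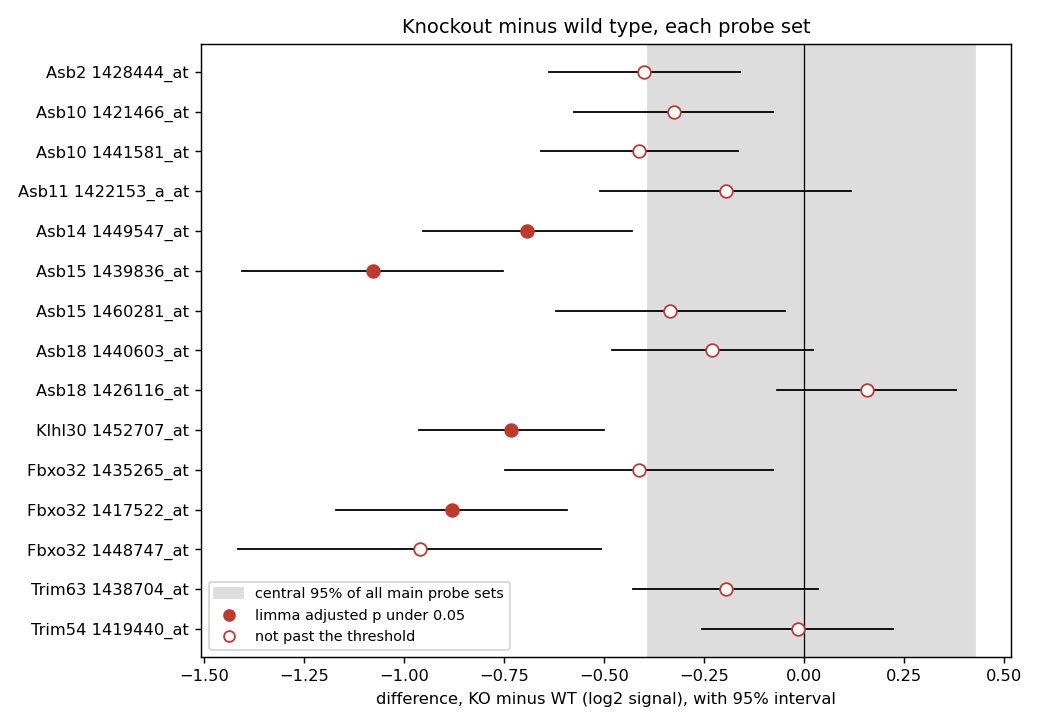
Knockout minus wild type difference in log2 signal of each probe set (points) with its 95% interval from limma (lines); filled points passed the adjusted threshold of 0.05, and the grey band holds the central 95% of all main probe sets, from -0.39 to 0.43. The filled points are Asb14, Asb15, Klhl30 and 1 of the 3 probe sets of Fbxo32, and 14 of the 15 points lie left of zero.

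Counted together, 4 of 15 probe sets fell and 0 rose, beside 0.183% of all probe sets that fell. At the main probe set 3 of 10 genes fell, beside 0.227% of all main probe sets. The knockout arrays lay wholly below the wild type arrays in 9 of 15 probe sets and at 6 of 10 main probe sets, where all probe sets gave 8.42% and all main probe sets 9.38%. The cardiomyocyte markers given below had all knockout values under the wild type ones at 9 of 12 main probe sets. The median difference of the 10 genes was -0.36, and that of all main probe sets was -0.0020, with 50.6% of them negative. As the genes were picked with this comparison known, these shares only describe the list. The median was -0.35 without knockout replicate 1 and -0.36 without wild type replicate 3, while the count of probe sets past the threshold was 0 and 1 in those fits and 0 without both arrays.

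Within a genotype the genes did not follow 1 order of hearts. Among the knockout hearts, replicate 3 was highest at 7 of 10 main probe sets, those of Asb2, Asb10, Asb11, Asb14, Asb15, Klhl30 and Trim54, against 33.4% of all main probe sets. For Fbxo32 and Asb18 that heart was the lowest of the 3. Knockout replicate 1 was highest only for Trim63. Among the wild type hearts, replicate 3 was highest for Asb11, Asb15, Klhl30 and Trim54 and lowest for Asb18, Fbxo32 and Trim63. These orders rest on 3 hearts a group and were not tested.

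**Figure D3:**
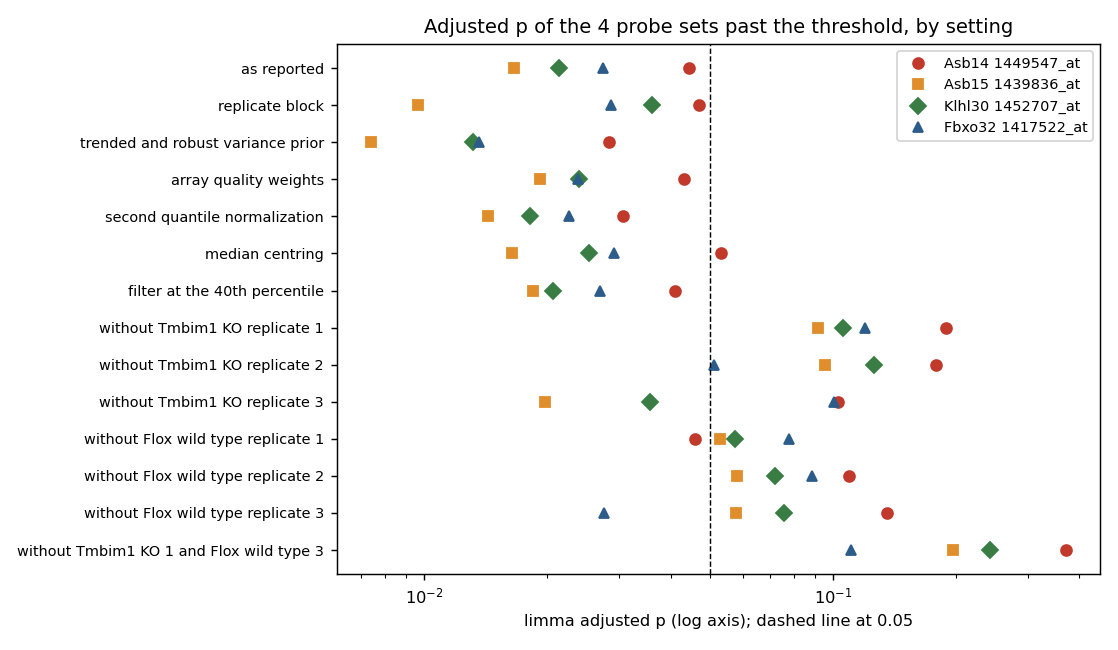
Limma adjusted p (log axis) of the 4 probe sets past the threshold under the reported fit and each alternative fit, with the threshold of 0.05 as a dashed line. With all 6 arrays the points lie left of the line except Asb14 under median centring (0.0530), and with arrays left out most lie to its right.

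In the rest of the ASB family, limma called 0 of 12 measured genes, judged at the main probe set. Since 0.227% of all main probe sets fell and 0.322% rose, 0 calls among 12 genes does not set this list apart. The unadjusted limma p was under 0.05 for 3 of the 12 and for 11.5% of all main probe sets. The differences were negative in 10 of 12, with a median of -0.16. The lowest was Asb5, another muscle ASB gene, which read 8.02, 8.26 and 8.50 in knockout hearts, against 8.46, 8.80 and 8.84 in wild type hearts (-0.44, adjusted p = 0.294). Asb8 was at -0.35 (adjusted p = 0.315) and Asb7 at -0.23 (adjusted p = 0.379), each with all knockout values below the wild type ones. Asb4 (-0.21), Asb13 (-0.18), Asb12 (-0.17), Asb9 (-0.15), Asb3 (-0.11), Asb6 (-0.065) and Asb16 (-0.048) followed. Asb1 was at 0.041 and Asb17, near the bottom of the scale, at 0.17.

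The shared machinery that these adaptors plug into showed no call. Over all main probe sets, 0.227% fell, 0.322% rose and 11.5% had an unadjusted limma p under 0.05. At such shares, 0 calls in lists of this length is no result about these genes. Of 21 measured genes of the cullin-RING core, 0 passed by limma and 1 had an unadjusted p under 0.05, with 10 negative, 11 positive and a median of 0.016. That gene was Cand2, a muscle-enriched factor for exchanging cullin adaptors, at -0.26 (adjusted p = 0.376). Cul5, the cullin of the ASB proteins, was at -0.17 and its partner Eloc, elongin C, at 0.18, and Uba3, which activates the modifier Nedd8 of cullins, was at 0.13. Of 31 ubiquitin and proteasome genes, 0 passed by limma and 1 had an unadjusted p under 0.05, with a median of 0.066. It was the lid subunit gene Psmd8 at 0.33 (adjusted p = 0.353), followed by Psmd14 at 0.25, Psma3 at 0.20 and Psmd2 at -0.18.

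Other ubiquitin ligases and adaptors of muscle were mixed. Of 24 measured, 0 passed by limma and 4 had an unadjusted p under 0.05, with 15 negative, 9 positive and a median of -0.018. The shares over all main probe sets were 0.227% lower and 0.322% higher by limma, and 11.5% at an unadjusted limma p under 0.05. Rnf207, a cardiac RING protein tied to potassium channels, was at -0.48 (adjusted p = 0.270), Fbxo31 at -0.33 and Fbxo21, which is induced in wasting muscle, at -0.31. Rnf115 was at 0.39. Trim55, the relative of Trim63 and Trim54, was not analysed here. Among 18 reported substrates and partners, 0 passed by limma and 3 had an unadjusted p under 0.05, with a median of 0.014. Ttn, the giant sarcomere protein that binds MuRF proteins, was at -0.34 (adjusted p = 0.340), Ckm, muscle creatine kinase, at -0.25, Flnc, the muscle filamin, at 0.26 (adjusted p = 0.398) and the kinase gene Jak3 at 0.32.

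Upstream regulators of muscle ligase genes leaned negative, with 18 of 20 below zero and a median of -0.18. Of these 0 passed by limma, 5 had an unadjusted p under 0.05 and 7 had all knockout values below the wild type ones. Over all main probe sets the shares were 50.6% negative, 11.5% at an unadjusted limma p under 0.05 and 9.38% wholly below. Falls and rises by limma made up 0.227% and 0.322% of them. Among the 12 cardiomyocyte markers given below, 11 were negative and 9 had all knockout values below the wild type ones. Klf15, a glucocorticoid-induced factor that drives Fbxo32 and Trim63 in skeletal muscle, was at -0.49 (adjusted p = 0.301). The deacetylase gene Hdac9 was also at -0.49 (adjusted p = 0.172), Foxo3, a FoxO factor, at -0.38 (adjusted p = 0.314) and the MCAT-binding factor gene Tead1 at -0.37 (adjusted p = 0.298). Other FoxO and glucocorticoid responsive genes had 11 of 16 positive, 5 negative and a median of 0.15. There were 1 rise, 0 falls and 5 at an unadjusted limma p under 0.05, beside the 11.5% of all main probe sets. Control of the ligase genes by FoxO factors or glucocorticoids was not tested. Mt2, a metallothionein, rose by 0.94 (SE 0.10, adjusted p = 0.00579), at 9.78, 9.70 and 9.63 in knockout hearts and 8.73, 8.91 and 8.64 in wild type hearts, beside 0.322% of all main probe sets that rose. The clock gene Per1 (0.74, adjusted p = 0.0605), the cell cycle inhibitor gene Cdkn1a (0.51, adjusted p = 0.0950) and Gadd45a (-0.56, adjusted p = 0.357) did not pass at their main probe sets.

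**Figure D4:**
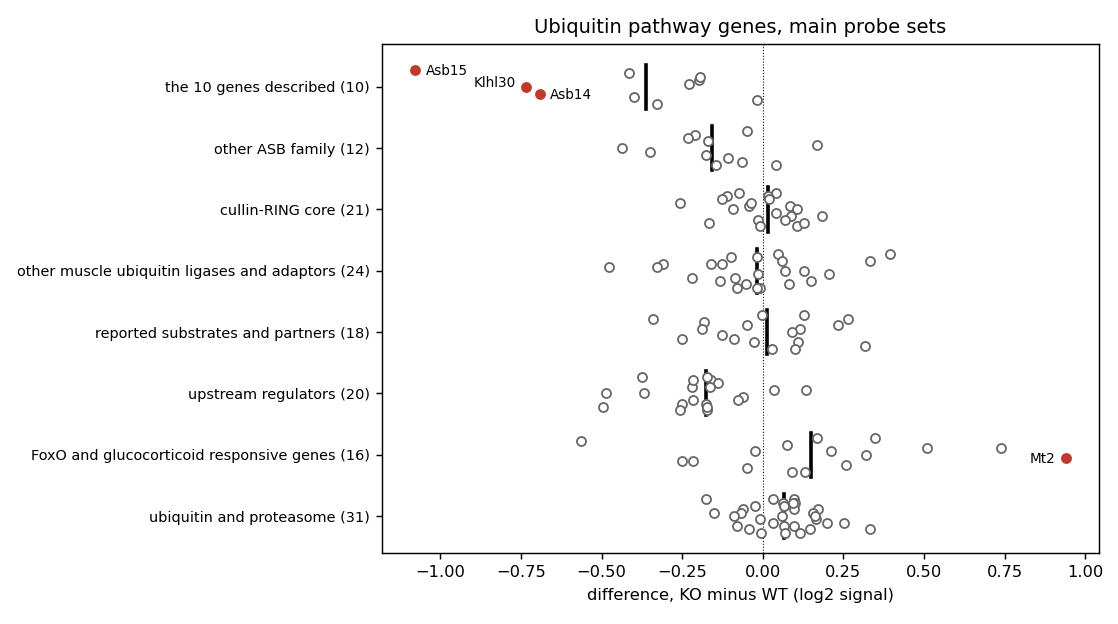
Knockout minus wild type difference in log2 signal at the main probe set of each gene, for the 10 genes described and 7 lists of related genes, with the number measured in brackets; filled points passed the adjusted threshold of 0.05 and black bars are medians. The 10 genes have a median of -0.36, the other ASB genes -0.16, upstream regulators -0.18 and the remaining lists between -0.018 and 0.15.

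Markers of the cells in the samples were read in the same hearts. The 12 cardiomyocyte markers were bright on every array and their summed linear signal was 98737 to 101116 in knockout hearts, against 104834 to 108314 in wild type hearts, with 11 of 12 differences negative, a median of -0.13 and 0 calls by limma (1 at an unadjusted p under 0.05). All knockout values lay below the wild type ones for 9 of 12, against 9.38% of all main probe sets. Most of the 12 sit at the top of the scale, where differences can be compressed. Fibroblast markers summed to 14196 to 16181 in knockout hearts, against 7200 to 13848 in wild type hearts, with 8 of 9 positive, a median of 0.40 and 0 calls by limma (5 at an unadjusted p under 0.05). The sum of 7200 is wild type replicate 3 alone, the other two being 13848 and 13069. The difference in mean sum was 4036 with all arrays and 1950 without that array. Macrophage markers summed to 3526 to 3948 in knockout hearts, against 2697 to 3518 in wild type hearts. Of these 8 of 9 were positive, with a median of 0.31 and 0 calls by limma (5 at an unadjusted p under 0.05). The sum of 2697 is again wild type replicate 3. For macrophage markers the difference in mean sum was 645 with all arrays and 448 without that array. Endothelial markers summed to 2062 to 2337 in knockout hearts, against 2135 to 2244, with 5 of 8 negative and a median of -0.069. Smooth muscle markers summed to 5772 to 7309 in knockout hearts, against 5695 to 6003, with 4 of 6 positive and a median of 0.23. Both lists had 0 calls by limma. An unadjusted limma p under 0.05 was found for 1 endothelial and 3 smooth muscle markers, the latter of both signs, and for 11.5% of all main probe sets. The 7309 is knockout replicate 1, and the difference in mean sum was 723 with that array and 333 without it. The heat shock and handling genes summed to 8941 to 9142 in knockout hearts, against 6494 to 6625 in wild type hearts, with 9 of 9 positive and a median of 0.50. That sum was mostly Hspb1, the brightest of the 9, whose difference of 0.39 did not pass by limma (adjusted p = 0.128). Of the 9 genes, 7 had an unadjusted limma p under 0.05. The inducible chaperone genes Hspa1b (2.33, adjusted p = 0.00579) and Hspa1a (2.203, adjusted p = 0.0429) rose. Their part in the values of the ligase genes was not tested. In these samples of whole tissue, fewer muscle cells and less RNA of a gene per muscle cell cannot be told apart.

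Because the ASB genes are also skeletal muscle genes, markers of that tissue were read as well. The 10 skeletal muscle markers summed to 118 to 121 in knockout hearts, against 121 to 134 in wild type hearts, and 3 of them averaged under each array's lower quartile. The fast fibre genes Myh4 and Myh1 lay between 2.01 and 2.70 on all 6 arrays. Neb, the gene of the thin filament protein nebulin, had the lowest difference of the list. It read 3.07, 3.10 and 3.43 in knockout hearts, against 4.24, 3.69 and 4.12 in wild type hearts (-0.81, adjusted p = 0.0701). Its groups did not overlap, and its difference did not pass. Differences were below zero for 8 of 10, their median was -0.11, and there were 0 calls by limma (1 at an unadjusted p under 0.05).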

How the data were processed

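RNA of 6 heart samples was hybridised to 6 Affymetrix arrays from 400 ng of total RNA per the labels. Each probe set's deposited value is a log2 signal. The submitters' processing notes name RMA and limma, and their settings are not given in the sources used here. Normalization by RMA removes overall shifts between arrays and can compress differences at both ends of the scale. The number of arrays, 3 a group, limits precision. Of 38208 rows, 13 control probe sets were left out. The platform annotation gave 34325 of the remaining 38195 probe sets 1 symbol, 62 several and 3808 none. Genes were placed along chromosomes by symbol through the GRCm38.p6 gene table, in which 17984 of 18029 matched.

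The 2 genotypes were compared with limma 3.58.1 in R 4.3.3 (lmFit and eBayes, no covariate, two-sided), with Benjamini-Hochberg adjustment over all 38195 probe sets. Differences are knockout minus wild type. No filter on dim probe sets was applied. The code was tested on simulated data. The rule named every probe set of the 10 genes, Tmbim1, all other ASB genes, and in each list up to 4 genes with the smallest unadjusted p at the main probe set. It also named the 5 genes nearest to Asb15 by root mean square difference over the 6 arrays. Kcne4 and Usp40 were named by their place on chromosome 1 and their calls. The genes and lists were chosen with earlier results of these data known. No batch is given in the labels, and no scan date was analysed here. The marker sums without single arrays, and the marker genes named from their values (Hspa1a, Hspa1b, Hspb1, Neb and Nppa), were chosen after seeing the data. So were the other probe sets of Cdkn1a and Cand2.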

Additional observations from a re-analysis of the deposited data

How the results depend on the processing

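Of the 15 probe sets, 14 kept the sign of their difference in every alternative, namely a replicate block, a trended and robust variance prior, array weights, median centring, quantile normalization applied again, a filter at the 40th percentile (which 13 probe sets pass), each array left out, and knockout replicate 1 and wild type replicate 3 left out together. Trim54 ranged from -0.066 to 0.066 (turned without wild type replicate 3) when 1 array was left out, with 0.035 without knockout replicate 2, and was at 0.047 without both of the last-named arrays. Asb6 ranged from -0.20 to 0.0065, turning without wild type replicate 3, and Asb1 to -0.0021 without both. With all 6 arrays, 3 to 5 member probe sets passed. Leaving out single arrays gave 0 to 2 member probe sets, 0 to 2 genes by main probe set, 38 to 86 of all probe sets (161 with all arrays) and a member median of -0.36 to -0.30. Without both arrays these were 0, 0 and 29, and the cause, beyond fewer arrays, was not tested. The mean over all probe sets of a gene gave a median of -0.38. With 1 probe set per gene in the fit, 3 genes passed.

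Same-numbered arrays of the 2 genotypes correlated at 0.060, 0.14 and 0.016 in their deviations from group means, and the numbers are not treated as pairing the mice. With the replicate block 5 member probe sets passed, the added one being Fbxo32 1448747_at (adjusted p = 0.0369), and 168 of all probe sets. Of 7 list medians, those of the upstream regulators (-0.22 to -0.15), other ASB genes (-0.18 to -0.13), FoxO and glucocorticoid responsive genes (0.10 to 0.19) and proteasome genes (0.012 to 0.14) kept their sign in 13 alternatives, and the other 3 crossed zero. Mt2 lost its call without both arrays only, and Per1 passed in 2 alternatives. Tmbim1 missed the threshold without knockout replicate 2 (0.0512) and without both arrays (0.0607).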

Other observations

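The 5 genes whose values over the 6 hearts, each set against its own mean, lay nearest to those of Asb15 among 18028 other main probe sets were Entpd5 (root mean square difference 0.163), an enzyme of nucleotide breakdown in the endoplasmic reticulum, the adhesion gene Cadm4 (0.175), Ky (0.184), a muscle protein gene that is mutated in kyphoscoliotic mice, Dgat2 (0.191), the final enzyme of triglyceride synthesis, and Lpin1 (0.204), a phosphatidate phosphatase. Ky read 3.69, 3.89 and 3.83 in knockout hearts, against 4.79, 4.61 and 5.14 in wild type hearts. Dgat2 read 8.72, 8.53 and 9.06 in knockout hearts, against 9.48, 9.27 and 9.72 in wild type hearts. In all 5 the knockout hearts lay below the wild type hearts, which follows from likeness to Asb15. Cadm4, Ky and Lpin1 passed by limma (adjusted p = 0.0302, 0.0138 and 0.0158), and Entpd5 (0.0641) and Dgat2 (0.107) did not. Leaving out 1 array at a time kept the call of Cadm4 in 1 of 6 fits and those of Ky and Lpin1 in 2 of 6 each. Over 13 alternatives the adjusted p reached 0.256 for Cadm4, 0.0946 for Ky and 0.208 for Lpin1. Of the genes described above, Klhl30 was the 9th nearest and Asb14 the 59th, while Fbxo32 at its main probe set was the 2453rd. The distance contains the knockout minus wild type difference, which was in view when the genes were chosen. These ranks and the calls of the 5 genes are therefore no separate support.

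Cdkn1a and Cand2 each had a probe set with a larger difference than their main one. Both probe sets fall outside the naming rule and were picked for their values. They were not examined with arrays left out. The other probe set of Cdkn1a rose by 0.66 (adjusted p = 0.0481), with 8.24, 8.03 and 8.20 in knockout hearts and 7.37, 7.43 and 7.69 in wild type hearts. The other probe set of Cand2 was at -0.51 (adjusted p = 0.0975), with 6.76, 6.75 and 6.98 in knockout hearts and 7.46, 7.35 and 7.22 in wild type hearts.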
